A study of Mus musculus with 16 samples.

Results

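The genes described here are 10 transcripts that mark steps of adult hippocampal neurogenesis, namely Sox2, Hopx, Nes, Mki67, Eomes, Igfbpl1, Sox4, Sox11, Neurod1 and Dcx. They were selected by gene symbol, from a list drawn up with earlier results of these data known, and all 10 were found among the 24972 genes listed in the files. Bulk RNA was sequenced from CA1, CA3 and dentate gyrus (DG) tissue dissected from the dorsal hippocampus of 3 trained and 3 untrained mice. All mice had the genotype ArcCreERT2::eYFPflx on a C57BL/6 background and were 3 to 4 months old. Both groups thus carried the inducible Cre recombinase driven by the promoter of the activity-regulated gene Arc, and the Cre-dependent eYFP reporter. Trained mice received 2 trials of 30 min on each of 2 days in active place avoidance, a task in which a mouse on a rotating arena learns to stay out of a shock zone. Untrained mice explored the arena without shock, and every mouse took a retention test without shock 24 h after the last training and gave tissue 60 min later. The 16 libraries were 3 trained and 3 untrained for CA1, 3 trained and 2 untrained for CA3, and 3 trained and 2 untrained for DG. By the study's methods each held the pooled tissue pieces of 1 mouse and 1 subregion, which the sex-linked transcripts described below did not bear out in every library.

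Neurogenesis continues in the adult mouse in the subgranular zone of the DG, where radial glia-like stem cells divide rarely and give rise to intermediate progenitors, which become neuroblasts and then immature granule neurons. Sox2, Hopx and Nes mark the stem cells, Mki67 marks cells in division, Eomes and Igfbpl1 mark progenitors, and Sox4, Sox11, Neurod1 and Dcx mark neuroblasts and young neurons. Several of these transcripts are not limited to the lineage, since Sox2 and Hopx are also made by astrocytes and Neurod1 by mature granule neurons. In bulk tissue, fewer cells of a type and less RNA per cell cannot be told apart.

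Values are normalized estimated counts, that is, reads assigned to a gene after the authors had scaled the libraries to each other. The reads behind a library, approximated from the spacing of its low values, ranged from 2539041 to 15119145, so that 1 read was worth between 0.515 and 3.13 units. The labels of subregion were not matched by the granule cell markers. Prox1, the transcription factor that defines granule neurons, had values from 2690 to 4786 in the 16 libraries and was as high in CA1 and CA3 as in DG. C1ql2, a protein of granule cell synapses, lay between 516 and 868. In limma fits, 0 of 11 mature granule cell markers were called between any pair of subregions (1, 0 and 0 at an unadjusted p under 0.05). CA1 pyramidal markers, summed over 4 genes led by Wfs1, lay between 3079 and 4998 in the untrained CA1 libraries and between 876 and 2010 in all others. A statement on DG, CA3 or CA1 below is therefore a statement on libraries with that label. Xist, the transcript of the inactive X chromosome, ranged from 7601 to 19592 in the trained libraries and from 25.5 to 52.4 in 6 of 7 untrained libraries, with 10587 in the CA3 library of untrained replicate 1. The study assigned 2 female mice and 1 male to training and 1 female and 2 males to the untrained group. The transcripts did not match this. All 9 trained libraries carried Xist, and no untrained title number carried it in each of its libraries. Untrained replicate 1 had Xist at 26.1 in CA1 and 25.5 in DG, but at 10587 in CA3 beside 201 for the Y-linked gene Ddx3y. Trained DG replicate 3 likewise held both, at 7601 for Xist and 255 for Ddx3y. Lower Ddx3y values stood beside Xist in trained CA1 replicates 1 (70.9) and 3 (101) and trained CA3 replicate 3 (92.9), against 1.66 to 12.9 in the other 5 trained libraries and 448 to 553 in the untrained libraries without Xist. The sex or the identity of some libraries is therefore in doubt, and trained, untrained and replicate below mean libraries so labelled. Training and these sex-linked transcripts separate nearly the same libraries, and every training difference below carries that limit.

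**Figure D1:**
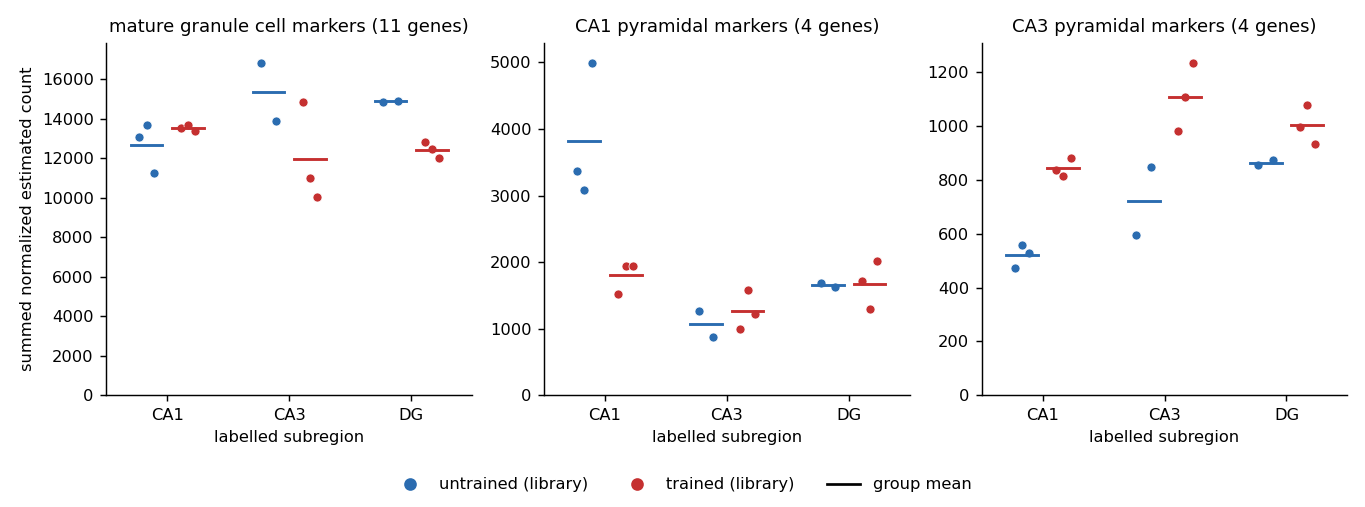
Summed normalized estimated counts of 11 mature granule cell, 4 CA1 pyramidal and 4 CA3 pyramidal markers by labelled subregion, each point a library and each bar a group mean. Granule cell sums overlap between CA1, CA3 and DG, while the CA1 sum is at least 3079 in the 3 untrained CA1 libraries and at most 2010 elsewhere.

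The genes differ in structure. Sox2 (chr3:34650405-34652461, plus strand), Sox4 (chr13:28948919-28953713, minus strand) and Sox11 (chr12:27334264-27342574, minus strand) are single-exon genes in GENCODE M21 on GRCm38. Mki67 spans chr7:135689784-135716361 on the minus strand with 14 exons in its longest coding transcript, and Dcx spans chrX:143855842-143933311 on the minus strand with 7. Nes (chr3:87971078-87980451) and Eomes (chr9:118478212-118486132) lie on the plus strand, and Hopx (chr5:77086988-77115121), Igfbpl1 (chr4:45809468-45826923) and Neurod1 (chr2:79452521-79456751) on the minus strand. Sox2 lies inside the noncoding transcript Sox2ot on the same strand (mean value 118 over the 16 libraries), and Neurod1 overlaps Cerkl on the same strand (mean value 23.7). Reads of these overlapping pairs, and of the unlisted antisense transcripts annotated at Hopx, Mki67, Eomes, Sox4 and Neurod1, may be shared, because the strand setting of the counting is not stated.

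Stretches just upstream of the annotated starts of Mki67, Sox4, Sox11 and Dcx are shown because these are the lower genes in trained libraries with an entry in the RefSeq promoter table (GRCm38.p6), which held 9 of the 10 genes. They are printed 5′ to 3′ on the minus strand of the genome, the strand that RefSeq and GENCODE give for all 4 genes. The Sox11 window lies before the RefSeq start, which is upstream of the GENCODE start given above. Capitals mark matches on either strand to CCAAT, the box bound by the factor NF-Y, and to CANNTG, the E-box bound by proneural factors such as Neurod1. The windows are chr7:135716380-135716629 for Mki67, chr13:28953714-28953949 for Sox4, chr12:27342719-27342968 for Sox11 and chrX:143933312-143933469 for Dcx, the Sox4 and Dcx windows being cut where an annotated exon begins.
Mki67: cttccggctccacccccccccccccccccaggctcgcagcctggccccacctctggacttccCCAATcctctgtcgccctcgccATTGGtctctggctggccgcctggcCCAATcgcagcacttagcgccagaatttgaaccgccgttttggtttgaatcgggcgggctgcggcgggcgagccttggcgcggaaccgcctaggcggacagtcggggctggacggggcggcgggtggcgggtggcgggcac
Sox4: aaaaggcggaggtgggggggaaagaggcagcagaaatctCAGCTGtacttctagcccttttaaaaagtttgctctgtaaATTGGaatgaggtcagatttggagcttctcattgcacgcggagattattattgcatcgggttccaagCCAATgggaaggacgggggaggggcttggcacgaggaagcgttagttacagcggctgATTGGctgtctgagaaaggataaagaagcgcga
Sox11: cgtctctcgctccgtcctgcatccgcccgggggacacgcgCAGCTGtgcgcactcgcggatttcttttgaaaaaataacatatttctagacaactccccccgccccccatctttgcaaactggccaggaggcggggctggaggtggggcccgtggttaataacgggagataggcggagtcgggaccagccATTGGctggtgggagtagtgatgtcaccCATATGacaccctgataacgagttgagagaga
Dcx: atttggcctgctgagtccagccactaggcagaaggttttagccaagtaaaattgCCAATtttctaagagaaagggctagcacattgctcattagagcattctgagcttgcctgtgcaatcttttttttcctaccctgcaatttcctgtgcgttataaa
The Mki67 window held 3 CCAAT matches and no E-box. The Sox4 window held 3 CCAAT matches and 1 E-box, the Sox11 window 1 CCAAT match and 2 E-boxes, and the Dcx window 1 CCAAT match, no E-box and 1 TATAAA at its 3′ end, left in lower case. Among 32851 annotated promoters, 33.8% of windows of 250 bases held CCAAT and 66.2% held CANNTG. For windows of 236 bases these shares were 32.7% and 64.3%, and for windows of 158 bases they were 21.2% for CCAAT, 51.1% for CANNTG and 7.6% for TATAAA. Of the other motifs searched on both strands and left in lower case, AACAAT was in none of the 4 windows (9.4% of windows of 250 bases held it). TTTGAA, the letters of the CHR element of cell cycle genes, matched 2 times in Mki67 and 1 time in Sox11 (16% of such windows), and GGGCGG, the GC box, 2 times in each of these (32.7%). A match is a run of letters and not evidence of binding.

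Levels between genes were compared per kb of the longest coding transcript, as means over the 16 libraries. Hopx, a homeodomain protein of stem cells and astrocytes, was at 217 ± 18.9 units per kb (SD, n = 16). Neurod1, a proneural transcription factor, was at 105 ± 12.4 and Sox2, a stem cell transcription factor, at 104 ± 15.0. These neighbours in the order lay within each other's spread. Next came Sox11 at 57.8 ± 12.6, Sox4 at 35.3 ± 7.66 and Dcx, which encodes the microtubule protein doublecortin of migrating neurons, at 21.5 ± 2.54. Nes, the intermediate filament nestin, was at 9.35 ± 3.01 and Igfbpl1, a secreted protein of progenitors and neuroblasts, at 5.54 ± 3.54, with overlapping ranges. The lowest were Mki67, the proliferation antigen Ki-67, at 2.60 ± 1.51 and Eomes, the progenitor transcription factor Tbr2, at 2.27 ± 1.50, again with overlapping ranges.

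**Figure D2:**
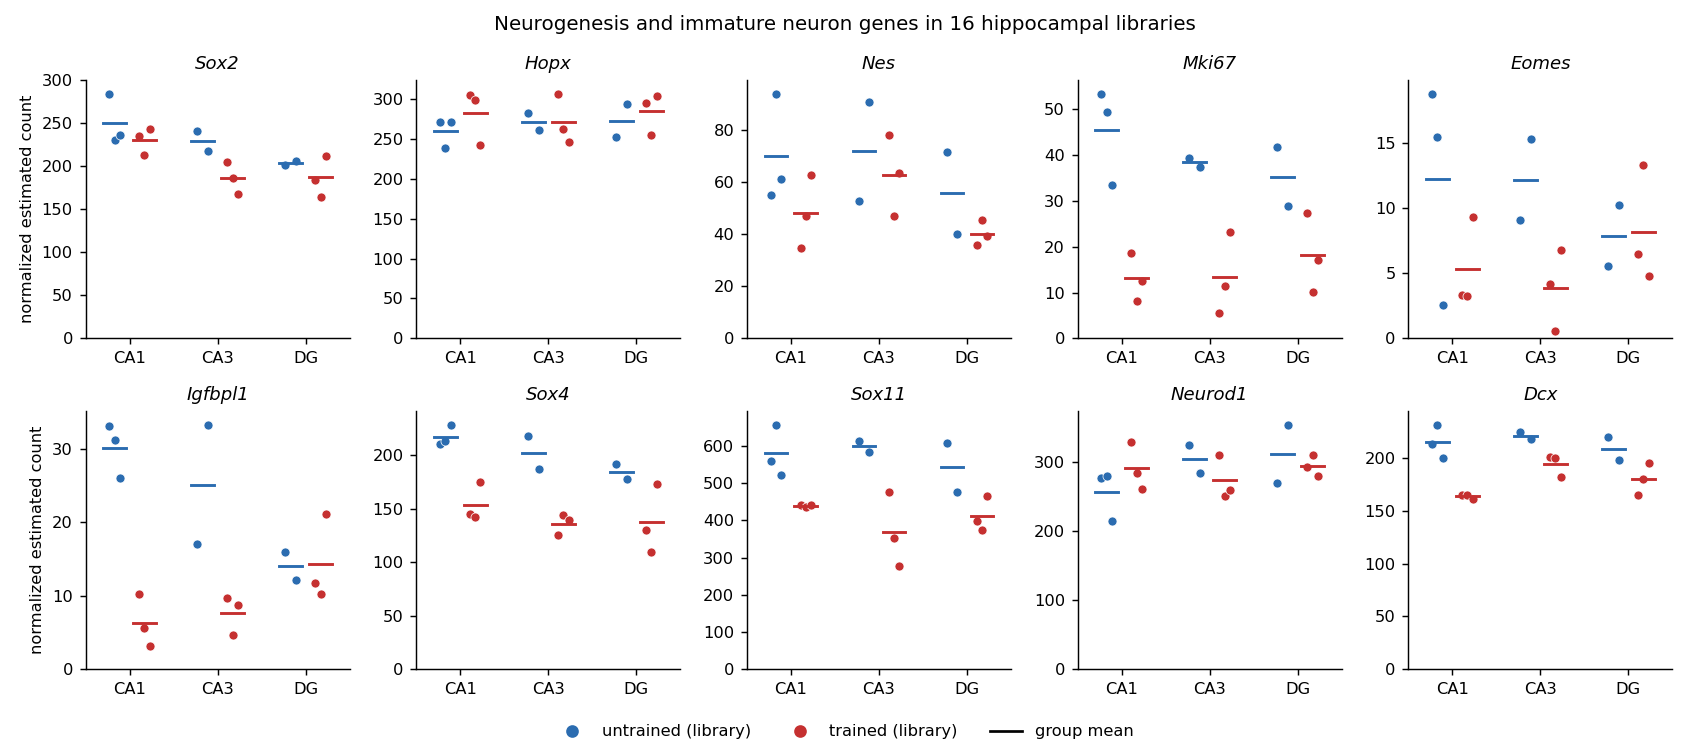
Normalized estimated count of each gene (vertical axis, from 0) in the 16 libraries by labelled subregion, untrained in blue and trained in red, with bars at group means. Mki67, Sox4 and Sox11 lie lower in every trained library than in every untrained one, while Hopx and Neurod1 overlap throughout.

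Between subregions, the level of the 10 genes did not pass the test in any direction. Comparing the labelled subregions in one fit of all 16 libraries, with the 2 training groups weighted equally, called 0 of 10 genes for DG against CA1, where 4.05% of all 14670 genes tested were called at an adjusted p under 0.05. It also called 0 of 10 for DG against CA3, where the share was 0.00682%, and 0 of 10 for CA3 against CA1, where it was 0.988%. At an unadjusted p under 0.05 each contrast held 1 of the 10 genes, namely Sox2 for DG against CA1 (19.6% of all genes), Nes for DG against CA3 (6.86%) and Sox2 for CA3 against CA1 (10.2%).

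The markers of the neurogenic niche were thus not measurably higher in the libraries labelled DG. For Dcx, the log2 difference was 0.05 ± 0.16 (fitted 95% interval) for DG over CA1 and -0.10 ± 0.17 for DG over CA3. For Neurod1 the same differences were 0.15 ± 0.19 and 0.07 ± 0.20. Intervals were wider for the low genes, at 0.10 ± 0.89 for Eomes, 0.02 ± 0.60 for Mki67 and -0.0016 ± 0.60 for Igfbpl1 in DG over CA1. Sox2 came closest to the threshold and ran opposite to a DG marker. Its values were 283, 231 and 236 in untrained and 234, 213 and 243 in trained CA1, against 201 and 206 in untrained and 184, 164 and 212 in trained DG. The log2 difference of DG over CA1 was -0.30 (SE 0.0857, adjusted p = 0.0501). With the title number within a training group as a random block the adjusted p was 0.0484, so that 1 of 10 genes was called, where 4.10% of all genes were. Without untrained CA3 replicate 1 and trained DG replicate 3 it was 0.0430, where 2.51% of all genes were called.

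**Figure D3:**
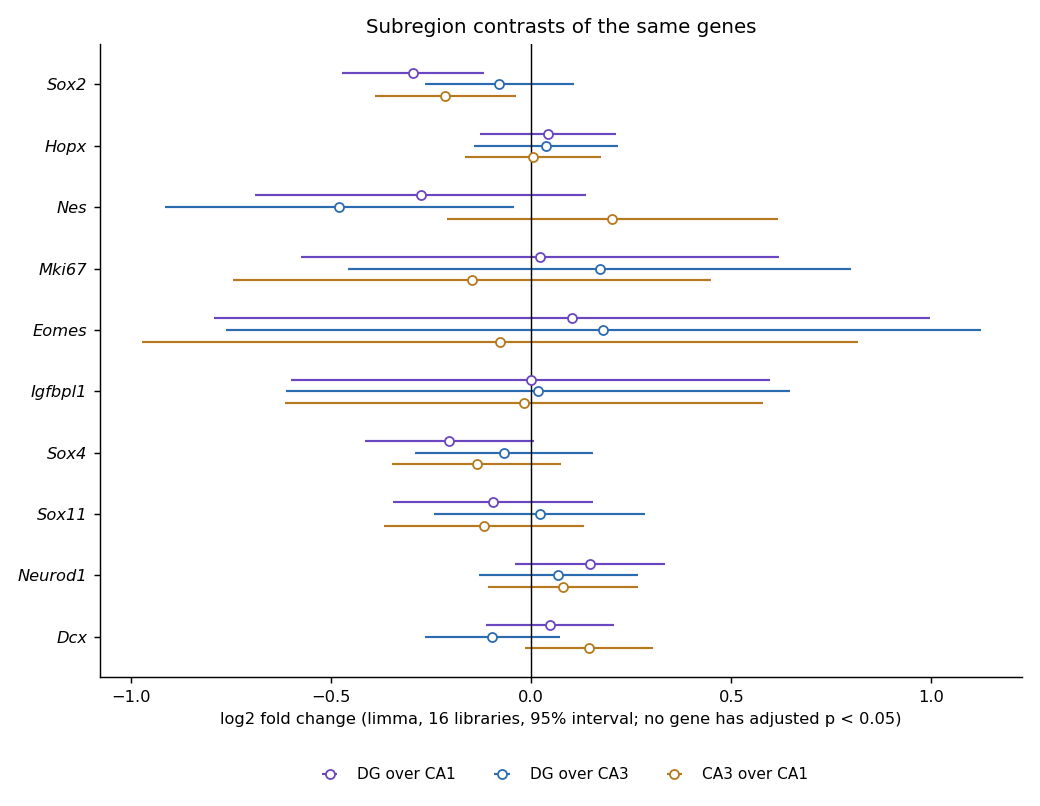
Log2 fold change of the 10 genes between labelled subregions (horizontal axis), with fitted 95% intervals from limma over 16 libraries. No interval belongs to a gene with an adjusted p under 0.05, and the DG over CA1 value of Sox2, at -0.30, lies farthest from 0 relative to its interval.

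Of the 10 genes, 8 had a log2 fold change below 0 in trained libraries, as did 7655 of all 14670 genes tested. In the fit of all 16 libraries with subregion as a term, 5 of 10 genes were lower in trained mice and none was higher at an adjusted p under 0.05, where 10.3% of 14670 genes were called 4.06% lower and 6.28% higher. The 5 were the proliferation gene Mki67, the progenitor gene Igfbpl1 and the immature neuron genes Sox4, Sox11 and Dcx. The median log2 fold change, trained over untrained, was -0.44 over the 10 genes and -0.01 over all genes tested. The stem cell genes and Neurod1 did not pass. Libraries with the same title number in a training group were treated as independent here, although their deviations correlated in some pairs (0.171 to 0.213 between trained CA1 and DG). With that number as a random block, at a consensus correlation of -0.0355, the same 5 genes passed, where 12% of all genes were called. With the libraries averaged to 1 mean per number, 3 against 3, the same 5 passed again, where 6.58% were called, with adjusted p from 0.00288 for Mki67 to 0.0302 for Dcx.

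Among stem cell genes, Hopx ranged from 242 to 306 with a median of 295 in the 9 trained libraries, and from 239 to 294 with a median of 271 in the 7 untrained ones. Its log2 fold change was 0.06 ± 0.14 (95% interval). Sox2 ranged from 164 to 243 (median 204) in trained and from 201 to 283 (median 231) in untrained libraries. The groups overlapped, and the log2 fold change was -0.18 (SE 0.0707, adjusted p = 0.110). Nes ranged from 34.7 to 77.7 (median 46.9) in trained and from 40.04 to 93.5 (median 61.0) in untrained libraries, with a log2 fold change of -0.38 (SE 0.162, adjusted p = 0.142). For Sox2 and Nes the unadjusted p was 0.0190 and 0.0292, in a fit where 25.5% of all genes had an unadjusted p under 0.05.

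Mki67, which cells express throughout the cell cycle but not at rest, had the widest difference of the 10 genes over all 16 libraries, though not in CA1 alone. In CA1 its values were 53.3, 49.4 and 33.5 in untrained and 18.7, 8.26 and 12.5 in trained mice. In CA3 they were 39.5 and 37.5 against 5.50, 11.4 and 23.2, and in DG 41.7 and 28.8 against 27.4, 10.2 and 17.1. Every trained library was below every untrained one, though the closest pair, both from DG, was only 27.4 against 28.8. The mean over trained libraries was 14.9 ± 7.23 (SD, n = 9), which is 36.8% of the untrained mean of 40.5 ± 8.54 (SD, n = 7). The log2 fold change was -1.42 (SE 0.242, adjusted p = 0.000824). These are small numbers of reads, from about 4.0 in trained CA1 replicate 3 to about 83.0 in untrained CA1 replicate 2.

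Of the progenitor genes, Igfbpl1 had lower values in every trained library than in the untrained ones of the same subregion in CA1 and CA3, but not in DG. Untrained CA1 had 33.2, 31.2 and 26.1, and trained CA1 had 10.2, 5.66 and 3.13, the last being about 1.0 read. Untrained CA3 had 17.01 and 33.2, and trained CA3 had 9.63, 4.69 and 8.81. In DG, 15.9 and 12.2 in untrained stood against 11.7, 10.2 and 21.1 in trained mice, with the highest value in a trained library. The fold change over all libraries was -1.24 on the log2 scale (SE 0.292, adjusted p = 0.00821), and the call was lost without untrained replicate 2 (0.0732) or trained replicate 2 (0.0645).

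Eomes had few reads in every library, from about 1.0 to about 26.0. Its values ranged from 0.580 to 13.3 with a median of 4.81 in trained libraries, and from 2.53 to 18.8 with a median of 10.3 in untrained ones. The groups overlapped, and the log2 fold change of -0.74 ± 0.78 (95% interval, adjusted p = 0.224) did not pass. Eomes did not reach the filter on low values in CA1 or in CA3. Of the single subregions it was tested in DG, at a log2 fold change of -0.0025 ± 1.18.

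The SoxC transcription factors, which drive neuronal genes in neuroblasts, were both lower in trained libraries. Sox4 was 211, 213 and 228 in untrained and 145, 142 and 175 in trained CA1. In CA3 it was 218 and 187 against 125, 144 and 139, and in DG 191 and 178 against 129.9, 109.9 and 173. No trained library reached an untrained one, the nearest being 175 in trained CA1 and 178 in untrained DG. Sox4 fell by 0.50 on the log2 scale (SE 0.0828, adjusted p = 0.000656), with a trained mean at 70.0% of the untrained mean.

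Sox11 was 561, 656 and 523 in untrained and 440.2, 436 and 441 in trained CA1. It was 614 and 585 against 476, 352 and 277 in CA3, and 609 and 478 against 399, 375 and 464 in DG. Again the 9 trained libraries lay below the 7 untrained ones, with 476 in trained CA3 beside 478 in untrained DG. Sox11 fell by 0.50 on the log2 scale (SE 0.0972, adjusted p = 0.00394), and its trained mean was 70.8% of the untrained mean. Without untrained replicate 1 it was not called (adjusted p = 0.0757). Over all genes tested, 0.436% had all trained below all untrained libraries, and 3 of these 10 genes did, Mki67, Sox4 and Sox11.

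Dcx and Neurod1 are both used to count new neurons, and the difference between them was not tested. Dcx was 213, 231 and 199.6 in untrained and 165, 165 and 161 in trained CA1. It was 224 and 218 against 201, 200.2 and 182 in CA3, and 219.7 and 198 against 165, 180.4 and 195 in DG. Groups were apart within each subregion but overlapped across subregions. The log2 fold change of -0.27 was small but passed the test (SE 0.0639, adjusted p = 0.00805), though not without untrained replicate 1 (0.0794). Neurod1 ranged from 251 to 329 (median 284) in trained and from 216 to 354 (median 279.8) in untrained libraries, and its log2 fold change was 0.00018 ± 0.16 (95% interval, adjusted p = 0.999).

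**Figure D4:**
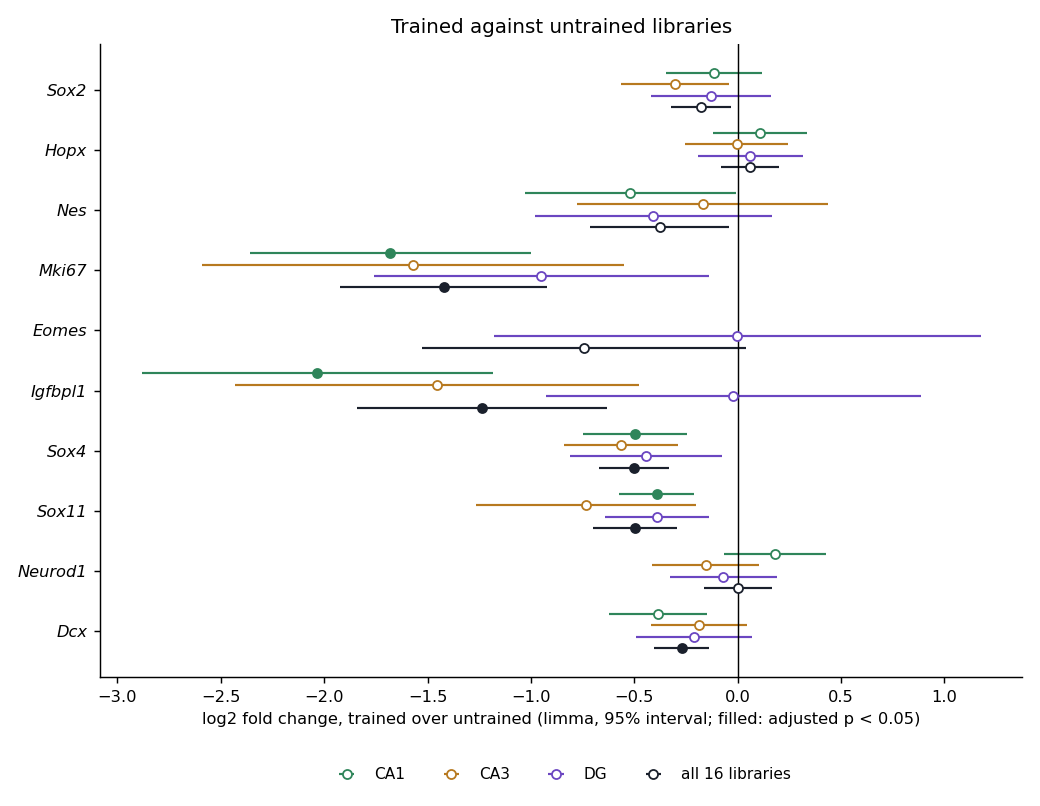
Log2 fold change, trained over untrained, of the 10 genes in each labelled subregion and in all 16 libraries (horizontal axis), with fitted 95% intervals; filled points have an adjusted p under 0.05 and Eomes was tested only in DG and in all libraries. Mki67, Igfbpl1, Sox4, Sox11 and Dcx are filled for all libraries, and Mki67, Igfbpl1, Sox4 and Sox11 for CA1, while none is filled for CA3 or DG.

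Within CA1 alone, 4 of the 9 genes tested were lower in trained mice, where 5.23% of 13585 genes were called and 1.70% were called lower. They were Igfbpl1 (log2 fold change -2.03, SE 0.405, adjusted p = 0.00472), Mki67 (-1.68, SE 0.325, adjusted p = 0.00381), Sox4 (-0.50, SE 0.120, adjusted p = 0.0187) and Sox11 (-0.39, SE 0.0867, adjusted p = 0.0102). Igfbpl1 and Mki67 reached the filter on low values in CA1 through the untrained libraries, where they were high. The trained values alone, 10.2, 5.66 and 3.13 for Igfbpl1 and 18.7, 8.26 and 12.5 for Mki67, would not have reached it. Dcx had an adjusted p of 0.0539 at a log2 fold change of -0.38. In CA1, 5 of the 9 genes had all trained below all untrained libraries (11.1% of all genes did). Markers of other cell types also moved with training in CA1. The CA1 pyramidal sum was 1528 to 1943 in trained against 3079 to 4998 in untrained libraries, with Fibcd1 lower (-1.32, adjusted p = 0.0139). The sum of 4 CA3 pyramidal markers was 814 to 881 against 473 to 558, with Bok (1.04, adjusted p = 5.6e-05) and Grik4 (0.56, adjusted p = 0.00083) higher. The sum of 5 leptomeningeal markers was 1015 to 1230 against 1905 to 2070, with Ptgds lower (-1.02, adjusted p = 2.0e-08). Reln (-0.25) and Aqp4 (-0.35) were also lower, and these genes were named after their values were seen. Aqp4 did not stand for its list, since 1 of 8 astrocyte markers was called in CA1. Of these 8, 4 were below 0, and their median log2 fold change was 0.03. The part of these cell types in the results was not tested. Calls in CA1 rested on few libraries. Mki67 (adjusted p = 0.0519) and Igfbpl1 (0.0555) were lost without untrained replicate 1, and Sox11 without trained replicate 2 (0.0533) or untrained replicate 2 (0.0764). With all 16 libraries in one fit, Sox11 was not called in CA1 (0.169) and Dcx was (0.0314). Sox4 kept its call only without trained replicate 3 (0.00769), its adjusted p ranging from 0.0518 to 0.0976 without any other replicate.

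In CA3 0 of 9 genes passed, where 0.852% of 13845 genes were called, although 5 of the 9 had an unadjusted p under 0.05 (15.8% of all genes did). The smallest adjusted p was that of Sox4 (log2 fold change -0.56, SE 0.124, adjusted p = 0.0664). Mki67 had a log2 fold change of -1.57 ± 1.02, Igfbpl1 of -1.45 ± 0.97 and Sox11 of -0.73 ± 0.53 (95% intervals). In 6 of the 9 genes tested the 3 trained CA3 libraries lay below both untrained ones, as did 16.7% of all genes tested. Igfbpl1, counted among these 6 and the 5 above, reached the filter on low values only through the untrained CA3 libraries (17.01 and 33.2). Its trained CA3 values were 9.63, 4.69 and 8.81. With all 16 libraries in one fit, 3 of the 10 genes passed in CA3, where 2.82% of all genes did, Sox11 (adjusted p = 0.0384), Sox4 (0.0425) and Mki67 (0.0479).

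In DG, the site of the neurogenic niche, 0 of 10 genes passed, where 3.40% of 13932 genes were called, and 3 of the 10 had an unadjusted p under 0.05 (19.5% of all genes did). The log2 fold change was -0.39 (SE 0.118, adjusted p = 0.0816) for Sox11, -0.44 (SE 0.173, adjusted p = 0.170) for Sox4 and -0.95 (SE 0.383, adjusted p = 0.180) for Mki67. Without untrained replicate 3 the fit called Sox11 (adjusted p = 0.00503) and 11.5% of all genes. It then held 1 untrained DG library, which is assumed to vary like the trained ones. For Igfbpl1 the log2 fold change was -0.02 ± 0.91 (95% interval). Trained libraries were all below untrained ones for 4 of 10 genes, Mki67, Sox4, Sox11 and Dcx, as for 18.2% of all genes tested.

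Whether the training difference itself varied between subregions was tested with an F test of the interaction. It called 0 of the 10 genes, where 1.07% of 14670 genes were called, and 1 of the 10 had an unadjusted p under 0.05 (15.1% of all genes did). That gene was Igfbpl1 (unadjusted p = 0.00655, adjusted p = 0.140), whose log2 fold change in DG was higher than that in CA1 by 2.01. The difference in Igfbpl1 between DG and the other subregions therefore did not pass, and the other 9 genes gave an adjusted p from 0.530 to 0.944.

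Several measures moved with training beside these genes. The number of genes listed at 0 was 8323 to 9758 in trained against 3124 to 5425 in untrained CA1, and ran the other way in DG, at 3479 to 5944 against 7567 and 8636. In CA3 it overlapped, at 3171 to 8691 against 3578 and 5659. With this number as a term over all libraries the same 5 genes passed, where 12.5% of all genes were called. Its part in the CA1 and DG results was not tested. A score of 4 Y-linked genes minus Xist followed training so closely that, with the score as a term, limma called 0 of 14670 genes and 0 of the 10 (1702 of all genes at an unadjusted p under 0.05). In that fit the log2 fold change was -1.03 for Mki67 (adjusted p = 0.522), -0.65 for Sox11 (0.280), -0.53 for Igfbpl1 (0.841), -0.33 for Sox4 (0.555) and -0.21 for Dcx (0.651). Training and the sex-linked transcripts cannot be told apart for these genes. Without the 2 libraries of most mixed Xist and Ddx3y values, untrained CA3 replicate 1 and trained DG replicate 3, 5 of 10 genes passed, where 6.70% of all genes did. Without these and the 3 trained libraries of lower Ddx3y values, 4 of 10 passed, where 2.23% of all genes did, and Dcx was not called (-0.26, adjusted p = 0.103). The CA3 pyramidal sum was 814 to 1236 in trained and 473 to 874 in untrained libraries, and Bok (0.74, adjusted p = 0.00157) and Grik4 (0.45, adjusted p = 0.00220) were higher over all libraries. The leptomeningeal sum was 978 to 1694 against 1336 to 2254. Flt1 (-0.94) and Rgs5 (-0.51), of endothelial cells and pericytes, were lower in DG, and Olig2 (0.31), of oligodendrocyte precursors, was higher over all libraries, again named after their values were seen. Markers of the choroid plexus, 5 genes led by Ttr, summed to between 639 and 932 in untrained CA1 and CA3, to 2106 in trained CA1 replicate 1, and to between 71.7 and 205 in all other libraries. None of these 5 markers was called over all 16 libraries (2 at an unadjusted p under 0.05, as 25.5% of all genes were). Ttr and Clic6, the latter named after its values were seen, were lower in trained CA3, and the part of these cell types in the results was not tested. Clic6 reached the filter on low values there only through the untrained libraries (39.6 and 43.3, against 2.26 to 9.84 in trained CA3). The summed level of 8 astrocyte markers was 9945 to 12241 in trained and 10887 to 11952 in untrained libraries. Among these 8, Aqp4 and Gja1 were lower and Fgfr3 was higher over all 16 libraries, genes picked out after their values were seen. The 6 markers of the GABAergic or subventricular lineage summed to 2688 to 3123 in trained and 2696 to 3123 in untrained libraries. Of these, 0 of 6 were called (0 at an unadjusted p under 0.05, beside 25.5% of all genes).

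Other genes of the same stages gave a mixed picture, to be read beside the 4.06% of all genes called lower and 6.28% called higher. Of 20 stem or radial glia-like genes, 19 were tested over all libraries, 1 was lower in trained mice and none was higher. Of 25 proliferation genes, 18 were tested and 3 were lower, with a list median of -0.31. Beside Mki67 these were the DNA topoisomerase Top2a, with 4.76 to 19.2 in trained and 15.1 to 23.9 in untrained libraries (-0.78, SE 0.233, adjusted p = 0.0320), and the cyclin Ccnb1 (-1.41, SE 0.431, adjusted p = 0.0366), which was listed at 0 in some trained libraries. Ccnb1 reached the filter on low values through untrained libraries. Its trained values were at most 1.16 in CA1 and 5.75 in CA3, and were 3.76, 6.19 and 13.6 in DG. Of 10 intermediate progenitor genes, 8 were tested and 4 were lower, including Sox4, Sox11 and Igfbpl1, which are among the genes described here.

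Among 25 genes of neuroblasts and immature neurons, all tested, 9 were lower and 2 were higher in trained mice, with a list median of -0.14 beside -0.01 for all genes. Besides Sox4, Sox11, Igfbpl1 and Dcx, the lower genes included Cd24a, a surface protein of neuroblasts, which ranged from 17.3 to 44.0 in trained and from 32.7 to 67.4 in untrained libraries (log2 fold change -0.86, SE 0.180, adjusted p = 0.00356). The remaining lower genes were Draxin, Sema3c, Marcksl1 and Bhlhe22, and the 2 higher ones were Elavl2 (0.45) and Stmn2 (0.30), genes named after their values were seen. Stmn2 and Elavl2 also rose in CA1 alone, by 0.36 (SE 0.0652, adjusted p = 0.00219) and 0.57 (SE 0.0860, adjusted p = 0.000452). Of 11 mature granule cell markers 1 was called over all libraries, Lct, at -0.33 (SE 0.0699, adjusted p = 0.00501). Their sum was 12009 to 12820 in trained against 14866 and 14883 in untrained DG, where 9 of 11 had a log2 fold change below 0 and 6 an unadjusted p under 0.05. Over all genes tested in DG, 6952 of 13932 were below 0 and 19.5% had an unadjusted p under 0.05. In CA3 the sum was 10041 to 14847 against 13887 and 16839, and 11 of 11 were below 0 with a median of -0.36, as were 7075 of all 13845 genes. In CA1 the sum was 13380 to 13660 against 11266 to 13666. The part of granule cells in the results was not tested.

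Within CA1, where 5.23% of all genes were called, the tests called 1 of 19 stem cell, 2 of 12 proliferation, 3 of 7 intermediate progenitor, 5 of 25 neuroblast and 2 of 11 granule cell genes. In DG, where 3.40% were called, these counts were 1 of 19, 1 of 16, 0 of 8 (3 at an unadjusted p under 0.05, as 19.5% of all genes were), 3 of 25 and 2 of 11. In CA1, Cenpf, a kinetochore protein of dividing cells, fell by 1.59 on the log2 scale (SE 0.392, adjusted p = 0.0211). It reached the filter on low values through the untrained CA1 libraries (19.2 to 34.0), the trained CA1 values being 4.68, 9.31 and 10.7. The stem cell lipid-binding protein Fabp7 fell by 0.53 in CA1 (SE 0.148, adjusted p = 0.0413) but rose by 0.84 in DG (SE 0.175, adjusted p = 0.0171). Tyms, the thymidylate synthase of DNA synthesis, rose by 1.44 in DG (SE 0.304, adjusted p = 0.0186), where Mki67 did not pass. In DG, Prox1 (-0.31, adjusted p = 0.00969), Stxbp6 (-0.44, adjusted p = 0.00446) and Neurod2 (-0.27, adjusted p = 0.0453) were lower and Tubb2b (0.32, adjusted p = 0.0244) was higher. In CA1 the granule cell marker Pdzd2 was higher (0.62, adjusted p = 1.8e-05) and Lct was lower (-0.20, adjusted p = 0.0469). No gene of these 5 lists was called in CA3, where 118 genes in all were called.

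**Figure D5:**
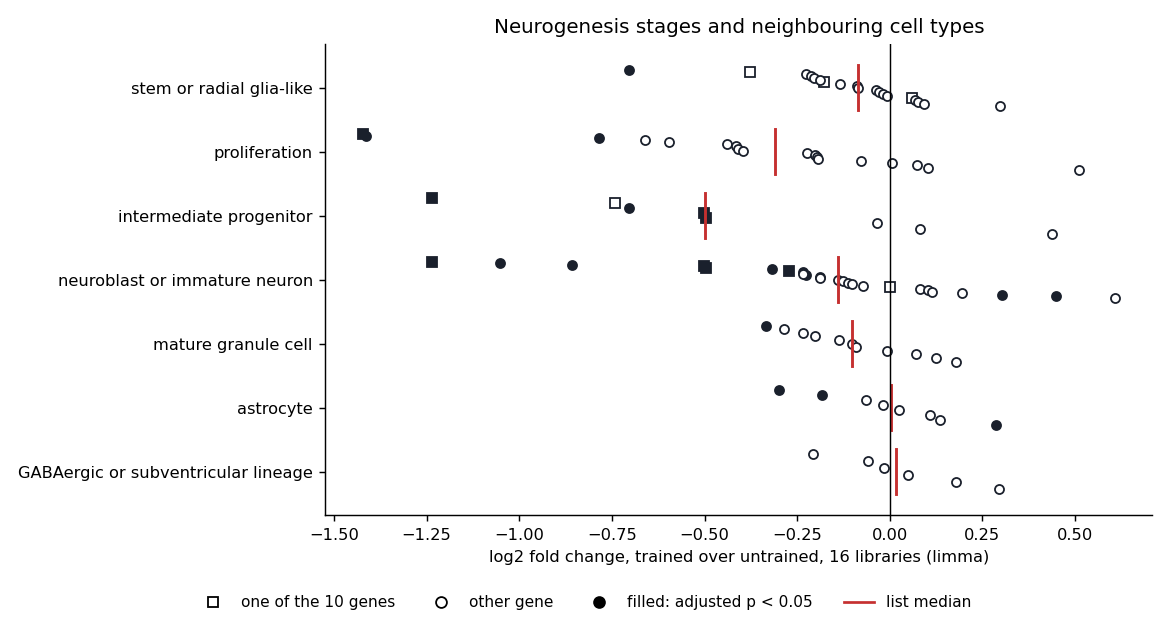
Log2 fold change, trained over untrained, over 16 libraries (horizontal axis) for every tested gene of 5 stage lists and 2 lists of other cell types, squares being the 10 genes described here, filled points an adjusted p under 0.05 and red bars list medians. Genes in more than 1 list are drawn in each, and the medians run from -0.50 for intermediate progenitors to 0.02 for the GABAergic or subventricular lineage.

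The transcripts closest in pattern were sought for Dcx, Eomes and Mki67 by Pearson correlation of log2 values over the 16 libraries, which share subregions, mice and training groups. For Dcx these were Thap2 (0.865), Zfp451 (0.856) and Phrf1 (0.826). For Eomes they were Rnf19a (0.822), Dsel (0.817) and Trim24 (0.787), and for Mki67 they were Tnc (0.884), Mex3a (0.858) and Arhgef3 (0.850). Between the genes described here, the correlation was 0.707 for Dcx with Igfbpl1, 0.668 with Sox11 and 0.634 with Sox4, and -0.048 for Dcx with Neurod1. These values describe the libraries and carry no test.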

How the data were processed

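Bulk libraries (polyA RNA per the labels, rRNA depletion in the extract protocol) were made from microdissected tissue with a RIN above 7. The authors mapped reads by STAR and estimated transcript abundance by Salmon. What they deposited, per library, is a normalized signal, an estimated count scaled between libraries; its median-of-ratios factors are all near 1, and whole reads could not be recovered for nearly all genes, so no test on counts was used. The labels name bcl2fastq 2.20, Trim Galore, FastQC and DESeq2, and the build GRCm38, while the paper's text pairs mm10 with another build number.

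From these values, limma 3.58.1 in R 4.3.3 (pandas 2.3.3, numpy 2.4.6) was fitted to log2(value + 2). The prior variance followed the mean, outlying variances were handled robustly, and p-values were adjusted by Benjamini-Hochberg over all genes tested. Fold changes are on that scale and understate low genes. Genes were kept with a value of at least 10 in as many libraries as the smallest group holds, and called at an adjusted p under 0.05. 4 rows with a repeated symbol were left out (24968 used), and 98.0% of symbols were in GENCODE M21. The method was tested on simulated data.

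The 10 genes and the lists were chosen with earlier results of these data known. Named genes were the 10, up to 3 called genes with the smallest adjusted p from each stage list and comparison, the leading marker of each other cell type, and the 3 genes most like Dcx, Eomes and Mki67 among those of mean value at least 10. Other genes are marked as named after their values were seen. A gene that this rule names is not reported here by name. Alternatives were a pseudocount of 0.5, no filter, rescaling, one fit of all libraries, blocks, covariates, subsets and each replicate left out, plus, chosen after seeing the data, the fits without 2 and without 5 libraries and, for training over all libraries, the random block and the mean per title number.

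Replicate numbers come from the titles. Across training groups they did not pair libraries (correlation of deviations -0.204 to 0.0990). The same title number within a training group was taken to mark 1 mouse (correlations -0.280 to 0.213, consensus 0.00675, and -0.0355 in the fit of training over all libraries), which sex-linked transcripts go against for untrained replicate 1. No replicate pair agreed within sampling noise. Spread between replicates is that between mice by the labels, and read numbers are approximate, so no counting intervals are given.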

Additional observations from a re-analysis of the deposited data

Results flagged for a closer look

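Igfbpl1 in trained DG replicate 3, a library of mixed Xist and Ddx3y values, had a value of 21.06, standing apart from the other 8 trained libraries, which lay between 3.13 and 11.7. Of the trained and untrained groups of the 10 genes, 20 were looked at in this way. The rule used is set to mark about 1 group in 20 by chance, a rate that was not tested here. Fabp7 had a training difference that varied between subregions by the interaction test (adjusted p = 0.00506), with trained values of 117 to 157 against 70.7 and 75.6 in DG and of 86.7 to 92.2 against 114 to 141 in CA1. Tyms also varied (adjusted p = 0.0405), with 34.2 to 45.0 in trained against 12.1 and 15.7 in untrained DG, 32.6 to 41.9 against 25.1 to 29.8 in CA1 and, in the other direction, 33.2 to 41.7 against 41.6 and 47.6 in CA3.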

How the results depend on the processing

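Over the single genes of the 10, 862 values under other settings kept their direction and side of the threshold, 16 became called, 20 lost their call and 74 changed sign, most of the last close to 0. Each sign change and each count that moved by more than 1.5 times is given here, and where no cause is named the cause was not tested. The sex-linked term shares most of its variation with training, which limits what any fit with it can call, and low reads limit Eomes, Igfbpl1 and Mki67.

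For the replicate block, the number as a term in CA3 gave 1170 called genes in place of 118 and 4 of the 10 genes (Mki67, Sox11, Sox4 and Igfbpl1), with Hopx at 0.063, and in DG gave Igfbpl1 at 0.16, although these numbers did not pair libraries across training. The block by mouse called 1 of the 10 genes for DG against CA1, Sox2. Over all libraries the block by mouse put Neurod1 at -0.00021, and 1 mean per mouse called 965 genes in place of 1516. The blocks moved no other count of called genes by more than 1.5 times.

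All 16 libraries in one fit called 413 genes in CA3 and 3 of the 10. Without the filter on low values, 1879 genes in place of 710 were called in CA1, 391 in place of 594 for DG against CA1, 2 in place of 1 for DG against CA3 and 814 in place of 157 for the interaction. With a pseudocount of 0.5, Igfbpl1 stood at 0.053 for DG against CA1 and 0.0082 for CA3 against CA1. With the sex-linked term 0 genes and 0 of the 10 were called over all libraries, and Hopx (-0.039), Nes (0.12) and Neurod1 (-0.25) changed sign. With the number of genes at 0 as a term, 6 genes were called for DG against CA3, and sign changed for Neurod1 (-0.019) in training, Mki67 (-0.024) in DG against CA1 and Sox11 (-0.013) in DG against CA3.

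Trained libraries alone gave 244 called genes for DG against CA1 and 20 in place of 145 for CA3 against CA1. There Igfbpl1 was 1.004 in DG over CA1 and 0.27 in CA3 over CA1, Sox2 was 0.0056 in DG over CA3, and Hopx (-0.053) and Neurod1 (-0.089) turned in CA3 over CA1. Untrained libraries alone gave 287, 4 and 88 called genes for DG against CA1, DG against CA3 and CA3 against CA1. In DG over CA1, Mki67 was -0.34, Eomes -0.30 and Dcx -0.039. In DG over CA3, Mki67 was -0.14, Eomes -0.53, Igfbpl1 -0.70 and Sox11 -0.15, and in CA3 over CA1 Eomes was 0.23 and Sox11 0.054.

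Without untrained CA3 replicate 1 and trained DG replicate 3, 978 genes in place of 1516 were called for training over all libraries, 367 with 1 of the 10 (Sox2, adjusted p = 0.0430) for DG against CA1, 2 for DG against CA3 and 26 for the interaction. Without these and 3 more trained libraries that held Ddx3y, 323 genes were called for training over all libraries. This last fit was run only for training over all libraries. Without only untrained CA3 replicate 1 and trained DG replicate 3, Igfbpl1 (-0.34) and Sox11 (-0.0050) turned in DG over CA3. In the same fits Hopx (-0.025), Eomes (0.081) and Igfbpl1 (0.20) turned in CA3 over CA1.

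With each replicate left out in turn, called genes ranged from 329 to 865 in CA1 (1 to 4 of the 10 genes), from 7 (without trained replicate 2) to 680 (without trained replicate 1) in CA3 (0 to 2), from 28 (without trained replicate 2) to 1585 (without untrained replicate 3) in DG (0 to 1) and from 456 to 1872 over all libraries (3 to 5). Over all libraries Dcx (adjusted p = 0.0794) and Sox11 (0.0757) lost their call without untrained replicate 1, and Igfbpl1 without untrained replicate 2 (0.0732) or trained replicate 2 (0.0645). Counts ranged from 113 to 432 for DG against CA1, 0 to 19 for DG against CA3 (0 without trained replicate 2 in limma, 672 genes at an unadjusted p under 0.05), 52 to 180 for CA3 against CA1 and 14 to 123 for the interaction. Ranges that crossed 0 in training were -0.094 to 0.063 for Hopx and -0.55 to 0.21 for Nes in CA3, -0.35 to 0.25 for Eomes, -0.048 to 0.17 for Hopx, -0.30 to 0.16 for Igfbpl1 and -0.26 to 0.12 for Neurod1 in DG, and -0.065 to 0.047 for Neurod1 over all libraries. In DG over CA1 they were -0.42 to 0.48 for Eomes, -0.036 to 0.11 for Hopx, -0.29 to 0.21 for Igfbpl1, -0.042 to 0.058 for Mki67 and -0.010 to 0.27 for Neurod1. In DG over CA3 they were -0.24 to 0.49 for Eomes, -0.022 to 0.12 for Hopx, -0.29 to 0.24 for Igfbpl1, -0.20 to 0.39 for Mki67, -0.028 to 0.21 for Neurod1, -0.12 to 0.13 for Sox11 and -0.15 to 0.025 for Sox4. In CA3 over CA1 they were -0.42 to 0.28 for Eomes, -0.014 to 0.037 for Hopx, -0.23 to 0.24 for Igfbpl1 and -0.37 to 0.19 for Mki67.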
